A study of Mus musculus with 8 samples.

Results

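Genes for the machinery that imports proteins into the mitochondrion and folds them there were described in germinal centre (GC) B cells sorted by MYC, a transcription factor that drives growth. The genes were the translocases of the outer and inner membranes, all those whose symbol starts with Tomm or Timm, and 8 more genes found on the array for matrix chaperones, the processing peptidase and a prohibitin. By this rule 69 probe sets of 32 genes were found, out of 18193 genes with a probe set of their own, and each gene was read from its brightest probe set. A filter on dim probe sets left 30 of the 32 among 11754 genes tested. The cells came from spleens of 8-week-old GFPMYC/C57BL6 mice, which carry a knock-in fusion of GFP with MYC, 12 days after immunization with sheep red blood cells (SRBC). GC B cells (PNAhi/CD95hi) were sorted by GFP, and Affymetrix arrays were run for 4 MYC-positive and 4 MYC-negative samples. MYC-positive and MYC-negative cells alike carried the fusion, and the level of the fusion is what they were sorted on. The sample descriptions name 4 pairs, numbered 1 to 4 here. The labels describe both sorting by mouse and pooling of cells, so how many animals a pair stands for is not settled.

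Nearly all mitochondrial proteins are made in the cytosol and threaded through membranes as unfolded chains. The TOM complex is the gate in the outer membrane. From there, carriers and other multi-span proteins are escorted by the small TIM chaperones across the intermembrane space to TIM22, while proteins with a cleavable presequence pass through TIM23 into the matrix, where the HSP70 of the matrix pulls them in, the processing peptidase cuts off the presequence, and the HSP60 and HSP10 chaperonin folds them. MYC, bound to its partner MAX, is known to bind the DNA letters CACGTG, called the E-box, and to promote mitochondrial biogenesis.

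The promoters of members that moved most are shown first, because CACGTG can be looked for in them. Sequences are from the RefSeq mouse assembly GRCm38.p6, run 5′ to 3′ on the gene's strand from 250 bases before to 50 after a listed transcript start, and every CACGTG is in capitals. Timm9 (chr12:71136626-71136925, minus strand), Timm10 (chr2:84826771-84827070, plus strand), Timm8a1 (chrX:134541621-134541920, minus strand) and Hspd1 (chr1:55088194-55088493, minus strand) hold the letters, and Tomm40 (chr7:19715380-19715679, minus strand) does not.
Timm9: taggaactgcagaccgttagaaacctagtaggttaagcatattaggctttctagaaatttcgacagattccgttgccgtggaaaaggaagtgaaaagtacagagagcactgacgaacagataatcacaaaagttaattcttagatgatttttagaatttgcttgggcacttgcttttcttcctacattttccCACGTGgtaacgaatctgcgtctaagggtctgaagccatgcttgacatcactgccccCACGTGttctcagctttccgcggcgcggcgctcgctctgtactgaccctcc
Timm10: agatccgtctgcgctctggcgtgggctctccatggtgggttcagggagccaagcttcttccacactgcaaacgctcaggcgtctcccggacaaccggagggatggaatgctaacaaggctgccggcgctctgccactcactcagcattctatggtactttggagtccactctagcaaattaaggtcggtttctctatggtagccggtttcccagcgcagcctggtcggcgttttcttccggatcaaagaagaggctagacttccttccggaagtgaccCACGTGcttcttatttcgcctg
Timm8a1: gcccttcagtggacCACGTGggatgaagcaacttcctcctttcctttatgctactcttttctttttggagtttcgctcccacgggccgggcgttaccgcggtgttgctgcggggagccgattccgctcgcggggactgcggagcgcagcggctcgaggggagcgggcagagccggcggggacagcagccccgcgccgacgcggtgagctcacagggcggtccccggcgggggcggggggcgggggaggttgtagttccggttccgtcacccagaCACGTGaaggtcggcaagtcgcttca
Hspd1: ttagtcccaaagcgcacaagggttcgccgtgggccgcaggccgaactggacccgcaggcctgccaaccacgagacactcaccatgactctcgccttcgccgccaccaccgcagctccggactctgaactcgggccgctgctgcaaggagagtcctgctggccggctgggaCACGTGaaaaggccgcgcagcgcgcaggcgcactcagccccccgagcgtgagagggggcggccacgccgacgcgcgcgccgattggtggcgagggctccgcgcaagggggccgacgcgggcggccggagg
Tomm40: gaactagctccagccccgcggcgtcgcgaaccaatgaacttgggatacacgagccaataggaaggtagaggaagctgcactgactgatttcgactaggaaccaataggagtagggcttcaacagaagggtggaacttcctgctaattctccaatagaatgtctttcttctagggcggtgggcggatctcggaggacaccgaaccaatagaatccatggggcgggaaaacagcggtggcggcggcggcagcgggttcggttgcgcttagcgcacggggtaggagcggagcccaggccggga

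In Timm9 the letters begin 58 bases and 1 base before the start, in Timm10 28 bases after it, in Timm8a1 236 bases before and 24 after it, and in Hspd1 80 bases before it. Hspd1 has a second listed start, whose window holds no CACGTG and which lies 216 bases from the listed start of Hspe1, its chaperonin partner gene on the opposite strand. The Hspe1 start lies between both Hspd1 starts, 95 bases from the Hspd1 start shown above. Of the 32 members 28 matched a promoter, and 6 of the 28 genes hold CACGTG: these 4, Tomm20 (126 bases before the start) and Tomm20l. The letters read the same on both strands, so a single search covers both. Among all 27025 genes with a promoter of this length, 2187 (8.09%) hold them. They are held by 5 of the 16 matched members called higher below, by none of the 10 matched members that were tested and not called higher, and by 187 of 1075 genes called higher on the whole array (17.4%). Of all genes tested that matched a promoter 1121 of 9544 (11.7%) hold them, and of those called lower 103 of 1078 (9.56%). These shares are descriptions of letters in a window, and no binding was measured.

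Myc itself had signals of 361, 932, 644 and 891 in MYC-positive samples of pairs 1 to 4, against 33.3, 156, 105 and 137 in MYC-negative samples. The fractions did not overlap, and the log2 differences of 3.44, 2.58, 2.62 and 2.71 check the sort and are no finding. Signals are MAS5 probe set intensities on a linear scale, and they are not comparable between probe sets. The arrays had trimmed mean signals from 497 to 498, and median signals from 28.2 to 39.7 in MYC-positive and from 41.4 to 55.8 in MYC-negative samples. The 3′ to 5′ signal ratio of the actin control was 1.933, 1.806, 2.237 and 1.925 in MYC-positive arrays of pairs 1 to 4. In MYC-negative arrays it was 1.597, 1.743, 1.432 and 2.242. All 8 measured GC B cell markers were above the filter in these cells, though Mybl1, Fas and Pax5 were lower in MYC-positive samples, and sums over the 8 ran from 37784 to 47810 in MYC-positive and from 48795 to 63576 in MYC-negative samples. Of 13 tested myeloid markers, 9 were higher and 1, Apoe, lower in MYC-positive samples. Summed over 16 myeloid markers the signal ran from 2301 to 13022 in MYC-positive and from 1301 to 2557 in MYC-negative samples. Of 5 tested plasma cell markers Sdc1 and Irf4 were higher, Prdm1, Xbp1 and Jchain were not called, and Tnfrsf17 lay under the filter. Sums over the 6 ran from 23945 to 30602 in MYC-positive and from 15933 to 28005 in MYC-negative samples. The brightest probe sets dominate such sums, here that of Jchain with signals from 10561 to 23199. No sum of markers is therefore an amount of a cell type. T cell markers Cd3e, Cd3d, Cd3g, Cd4 and Cd8b1 lay under the filter. Of the 3 tested, Thy1 was higher, and Cd8a (log2 difference -0.52) and Cd5 (-0.16) were not called. Sums over 8 T cell markers ran from 104 to 244 in MYC-positive and from 109 to 181 in MYC-negative samples. Of 4 red cell markers 3 lay under the filter, with sums from 35.2 to 69.9 in MYC-positive and from 23.1 to 68.9 in MYC-negative samples. Of 3 naive and memory B cell markers, Ccr6 and Cr2 were lower, with sums from 1297 to 2356 in MYC-positive and from 2430 to 4494 in MYC-negative samples. The part of other cells in the results below was not tested, and in sorted bulk samples a change in the cells of a type cannot be told apart from a change in RNA per cell.

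As a group, the import and chaperone genes were higher in MYC-positive GC B cells. Of 30 tested, 18 were higher and 1 lower at an adjusted p under 0.05 in a limma fit with the pair as a block, where 22.7% of all genes tested were called, 11.2% higher and 11.5% lower. The 18 had folds from 1.46 to 3.72 and were above 0 in each of 4 pairs, and 9 of them differed by 1 or more on the log2 scale. The median log2 difference was 0.66 over the 30 members and -0.06 over all genes tested. By pair the members' median was 0.79, 0.62, 0.73 and 0.76. That of the myeloid markers was 3.34, 2.03, 1.14 and 1.99, and how the members relate to these markers was not tested. Signals in MYC-positive samples all lay above those in MYC-negative samples for 16 of the 30 (53.3%), as for 11.1% of all genes tested. Of the other 11 tested members, which did not pass, log2 differences ran from -0.24 to 0.60. At an unadjusted p under 0.05, 22 members were higher and 1 lower, where 17% of all genes tested were higher and 19.2% lower.

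The scaling of the arrays matters for these counts. On the whole array 1319 genes were higher and 1352 lower as deposited, 1783 and 1333 after quantile normalization, and 3204 and 546 after each array was centred on its median. Median centring raised the members' median by 0.44, to 1.10, and the median of all genes also by 0.44, to 0.38. After quantile normalization the members' median was 0.66 and that of all genes 0.09. Without pair 1, 9 members were higher and 0 lower, and 399 of 11801 genes tested were higher and 355 lower. Without pair 2, 12 members were higher and 0 lower, and 455 of 11829 genes were higher and 422 lower. The members' median log2 difference was 0.64 without pair 1 and 0.70 without pair 2. Without pair 4, 22 members were higher and 1 lower, and 1747 of 11713 genes were higher and 2057 lower. The calls of 8 members (Tomm40, Timm10, Timm9, Timm8a1, Timm23, Timm17a, Hspd1 and Hspa9) held under all 12 alternative settings tried.

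**Figure D1:**
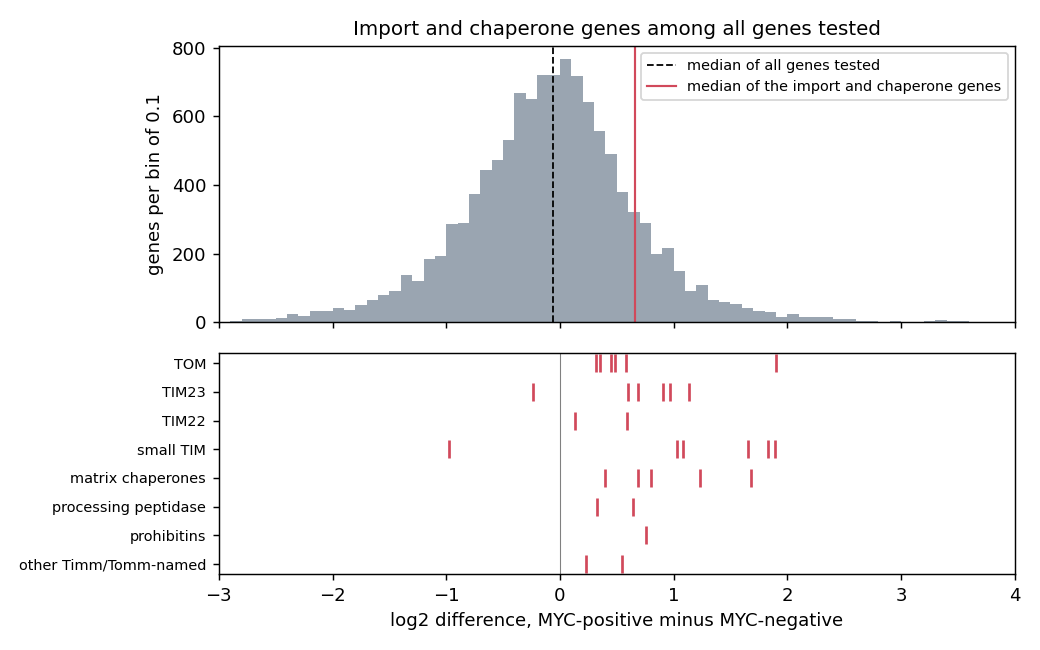
Histogram of fitted log2 differences (MYC-positive minus MYC-negative, x axis from -3 to 4) of the 11754 genes tested, above ticks that mark each of the 30 tested import and chaperone genes by class. The members' median of 0.66 lies to the right of the median of all genes at -0.06, and Timm10b of the small TIM class lies at -0.98.

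The small TIM chaperones, rings of small proteins that shield membrane proteins on their way through the intermembrane space, held 5 of the 18 higher genes and the lower one, with a class median of 1.37 over 6 tested members. Timm10, a subunit of the TIM9-TIM10 ring, had signals of 3423, 4147, 2905 and 4505 in MYC-positive samples, against 890, 1023, 1050 and 1025 in MYC-negative samples. Its partner Timm9 had 2402, 2827, 2250 and 3113 in MYC-positive samples, against 590, 819, 767 and 801 in MYC-negative samples. For both ring partners the lowest MYC-positive signal was more than 2-fold above the highest MYC-negative one. Timm10 was 1.89 higher on the log2 scale (SE 0.17, limma adjusted p = 0.00053, n = 4 pairs), or 3.71-fold, and Timm9 1.83 higher (SE 0.17, adjusted p = 0.00054), or 3.56-fold. A second, dimmer probe set of Timm9 was at 0.90, with pair differences from 0.038 to 2.28.

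Timm8a1, the X-linked gene whose human counterpart is mutated in a deafness-dystonia syndrome, had 6464, 6763, 9693 and 9250 in MYC-positive samples, against 1348, 1908, 2615 and 5975 in MYC-negative samples. The fractions did not overlap, but the MYC-negative sample of pair 4 was far above its group, and the pair differences were 2.26, 1.83, 1.89 and 0.63. The fitted difference was 1.65 (SE 0.24, adjusted p = 0.0027), and the other probe set of the gene was at 1.98. Timm13, which forms a second ring with the Timm8 proteins, was 1.08 higher (SE 0.25, adjusted p = 0.016) and Timm8b 1.03 higher (SE 0.19, adjusted p = 0.0067). Pair differences of Timm13 ran from 0.28 to 1.81 and those of Timm8b from 0.61 to 1.33. Without pair 1 the adjusted p was 0.11 for Timm13 and 0.059 for Timm8b, and without pair 2 it was 0.058 for Timm13. With no intensity trend in the fit it was 0.069 for Timm13. Timm8a2 was under the filter, with signals from 3.27 to 21.8 in MYC-positive and from 3.61 to 24.6 in MYC-negative samples.

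Timm10b, a relative of TIM10 that belongs to the TIM22 machinery, was the member that fell. Its brightest probe set had 585, 788, 1651 and 820 in MYC-positive samples, against 1486, 1682, 2150 and 1753 in MYC-negative samples. It was lower in every pair, though the MYC-positive sample of pair 3 overlapped the MYC-negative ones, and the fitted difference was -0.98 (SE 0.20, adjusted p = 0.011). The other 3 probe sets of Timm10b were at 0.28, -0.04 and 0.02, and averaged over its probe sets the gene was at -0.18 (adjusted p = 0.55). The adjusted p was 0.099 after median centring, 0.081 without pair 1 and 0.074 without pair 2. The fall of Timm10b is therefore a measurement of 1 of its 4 probe sets.

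**Figure D2:**
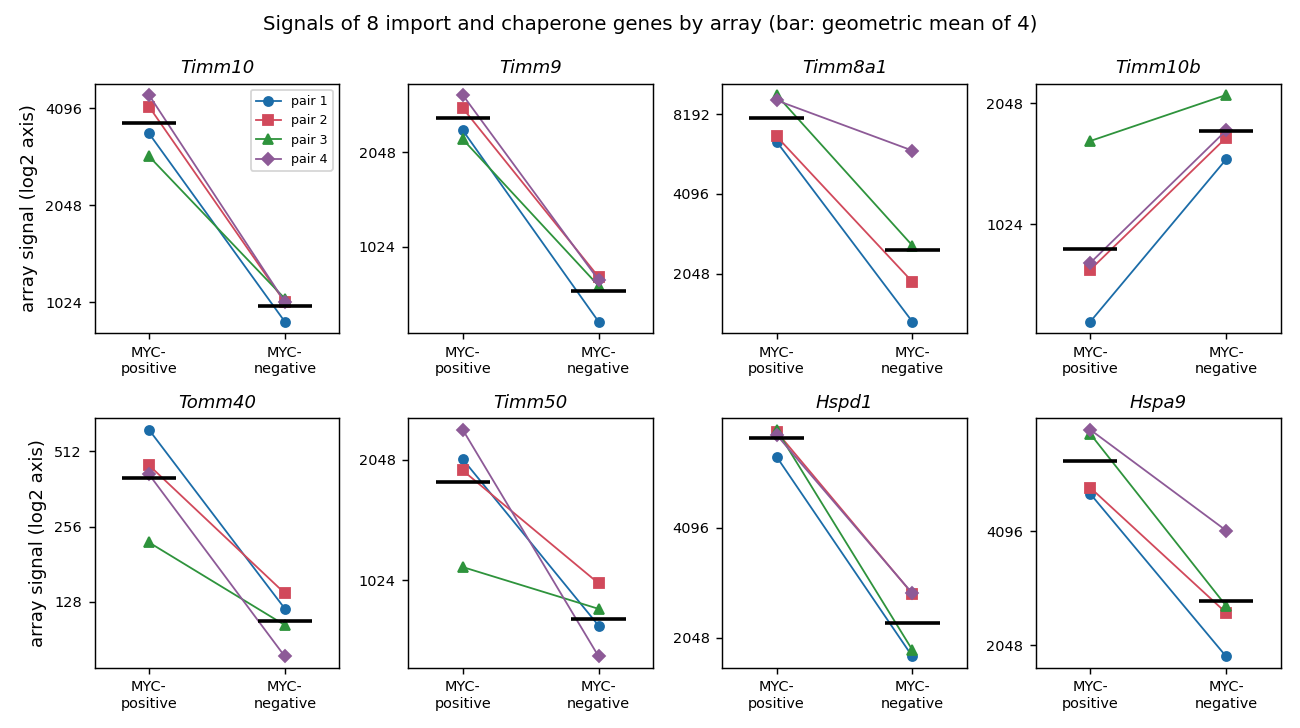
Array signal (log2 axis) of 8 import and chaperone genes in MYC-positive (left) and MYC-negative (right) samples, with a line joining the samples of each pair and a bar at the geometric mean of 4. MYC-positive signals lie above all MYC-negative ones for the 7 genes other than Timm10b, whose lines run the opposite way.

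In the TOM complex, Tomm40 and Tomm20 were higher, and the 4 other tested members did not pass, with a class median of 0.47. Tomm40, the channel-forming subunit, had 624, 450, 221 and 414 in MYC-positive samples, against 120, 139, 103 and 77.6 in MYC-negative samples. Its difference of 1.90 (SE 0.32, adjusted p = 0.0047), or 3.72-fold, was the largest of the members by less than its SE, Timm10 being at 1.89, and it ranked 170 of 11754 genes from the top. Tomm20, the presequence receptor, had 9466, 9030, 10107 and 13830 in MYC-positive samples, against 6152, 7027, 6677 and 8333 in MYC-negative samples. Its fractions did not overlap either, but the difference was smaller, 0.58 (SE 0.12, adjusted p = 0.011). All 5 further probe sets of Tomm20 were above 0, the lowest at 0.18. The adjusted p of Tomm20 was 0.090 without pair 1 and 0.078 with no intensity trend.

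The receptor gene Tomm70a, which takes carriers from cytosolic chaperones, was at 0.49 (SE 0.22, adjusted p = 0.15), with pair 4 at -0.39 and the others from 0.65 to 1.03. Its next brightest probe sets were at 0.76 and 0.93, and it passed without pair 4 and after median centring. The small subunit gene Tomm7 was at 0.45 (adjusted p = 0.066) and the central receptor gene Tomm22 at 0.35 (adjusted p = 0.085). Both were above 0 in all 4 pairs. Both passed without pair 4, after median centring, and with the mean over probe sets (adjusted p = 0.029 for Tomm7 and 0.047 for Tomm22). Tomm40l, a paralogue of the channel gene, was at 0.32 (SE 0.22, adjusted p = 0.34). Tomm20l, a paralogue of the receptor gene, lay under the filter, with 15.8, 17.2, 19.9 and 25.3 in MYC-positive samples, against 1.92 to 10.1 in MYC-negative samples.

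Of the TIM22 class neither member passed. Timm22, the channel-forming subunit for carriers, had 987, 692, 498 and 1118 in MYC-positive samples, against 532, 681, 569 and 358 in MYC-negative samples. The fractions overlapped, and pair differences of 0.89, 0.02, -0.19 and 1.64 gave a fitted 0.59 (SE 0.31, adjusted p = 0.21), with a second probe set at 0.05. Timm29, a subunit of the same complex, had 5698, 5795, 8381 and 6354 in MYC-positive samples, against 4748, 5710, 4728 and 9430 in MYC-negative samples. Its pair 4 ran against the others, and it was at 0.14 (SE 0.20, adjusted p = 0.68), or -0.095 without pair 3, with a second probe set at 0.66.

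In the TIM23 class, Timm50, Timm17a, Timm23 and Timm21 were higher, with a class median of 0.80. Timm50, the receptor that takes over presequences from TOM, had 2053, 1925, 1105 and 2433 in MYC-positive samples, against 789, 1006, 869 and 661 in MYC-negative samples. Timm17a, which lines the presequence path, had 3127, 3142, 2457 and 2462 in MYC-positive samples, against 1702, 1643, 1404 and 1036 in MYC-negative samples. Timm23, the core subunit, had 8831, 8677, 8527 and 10961 in MYC-positive samples, against 4313, 5260, 4255 and 6031 in MYC-negative samples. The fractions did not overlap for Timm50, Timm17a or Timm23. Timm23 varied least between pairs among these 3, with pair differences from 0.72 to 1.03 and a fitted 0.91 (SE 0.12, adjusted p = 0.0020). Timm17a was 0.97 higher (SE 0.16, adjusted p = 0.0041). Timm50 was 1.14 higher (SE 0.25, adjusted p = 0.013), from 0.35 in pair 3 to 1.88 in pair 4. The calls of Timm50 ended without pair 1 (adjusted p = 0.095), without pair 2 (0.063), with no intensity trend (0.058) and with the mean over probe sets (0.23, adjusted p = 0.64), where a second probe set near the filter was at -0.68.

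Timm21, which links the complex to respiratory chain assembly, was 0.69 higher (SE 0.16, adjusted p = 0.018), with adjusted p = 0.11 without pair 1, 0.095 without pair 2, 0.061 without pair 3 and 0.073 with no intensity trend. Its fractions overlapped, since the MYC-positive samples of pairs 1 and 2 were both at 2903, against 2926 in the MYC-negative sample of pair 4. Timm44, which tethers the import motor, was at 0.60 (SE 0.19, adjusted p = 0.054). Its fractions did not overlap, and it passed without pair 4 and under both other scalings. Timm17b was the exception of the class, at -0.24 (SE 0.15, adjusted p = 0.30) as deposited and 0.20 after median centring, with a second probe set at -0.03.

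The paralogues Timm17a and Timm17b were compared directly, along with 3 other pairs of related genes chosen after their values were seen. The log2 difference of Timm17a exceeded that of Timm17b by 0.72 in pair 1 to 1.63 in pair 4, a mean of 1.21 ± 0.38 (SD, n = 4). Tomm40 exceeded Tomm40l by 1.58 ± 0.33 (SD, n = 4) and Timm8a1 exceeded Timm8b by 0.63 ± 0.45 (SD, n = 4), each in 4 of 4 pairs. Grpel1 exceeded Grpel2 by 0.32 ± 0.66 (SD, n = 4), in 3 of 4 pairs. These values are descriptions, with no test.

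**Figure D3:**
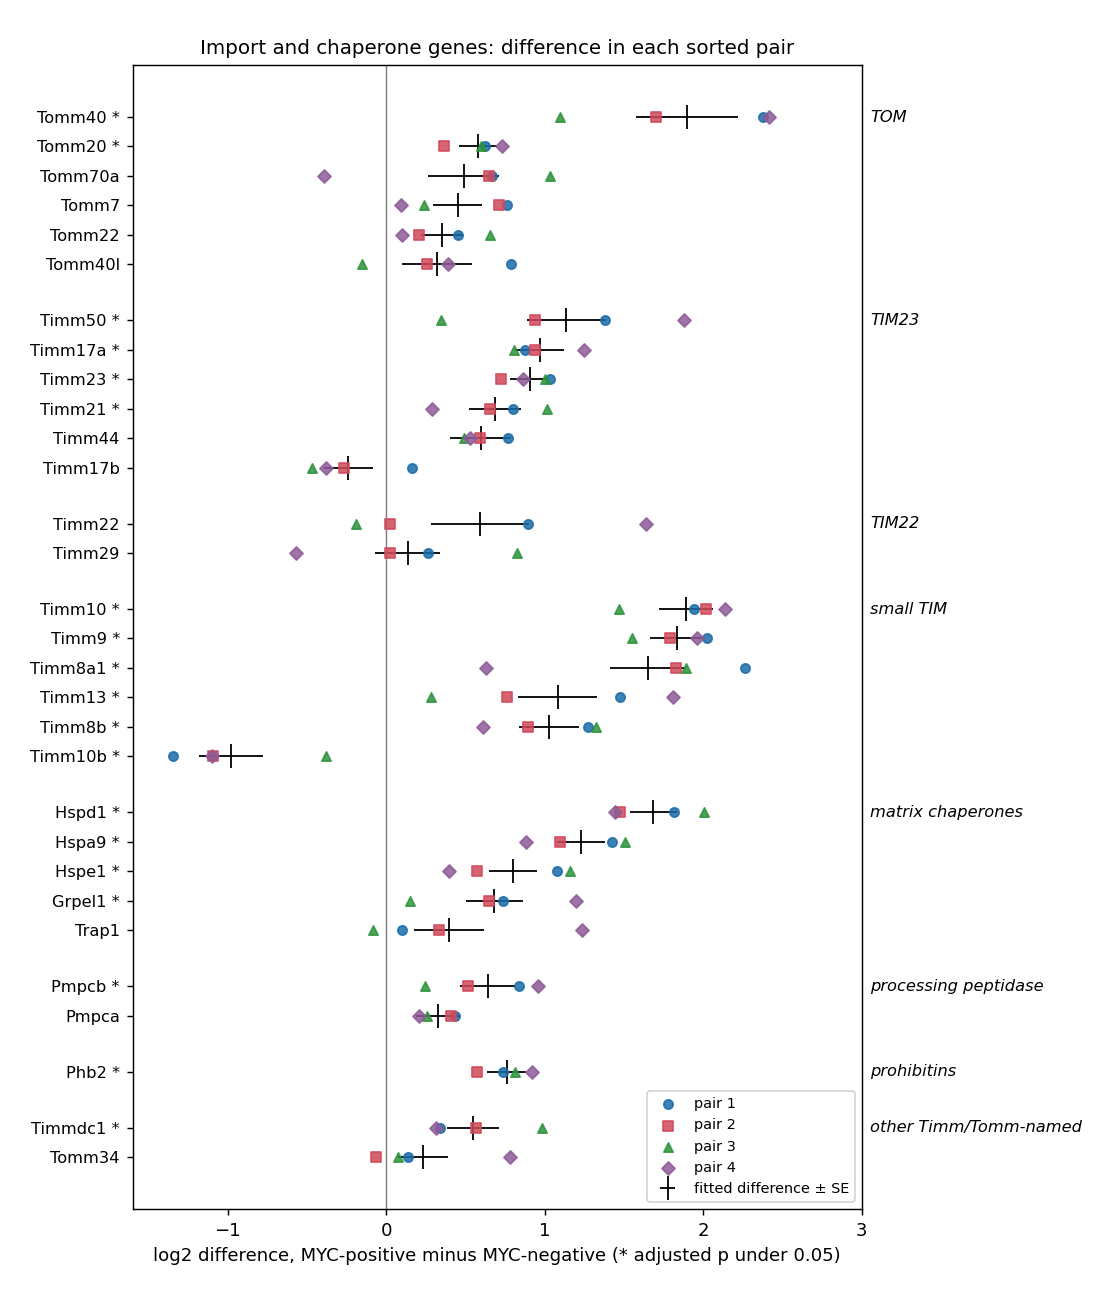
Log2 difference (MYC-positive minus MYC-negative, x axis) in each of the 4 pairs for the 30 tested members by class, with the fitted difference and its SE in black and an asterisk at an adjusted p under 0.05. Points lie right of 0 in all 4 pairs for the 18 genes called higher and left of 0 for Timm10b, and pairs 3 and 4 often sit at the extremes.

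Of the matrix chaperones, 4 of 5 were higher, with a class median of 0.80. Hspd1, which encodes HSP60, had 6408, 7500, 7589 and 7354 in MYC-positive samples, against 1820, 2700, 1896 and 2707 in MYC-negative samples. Hspa9, the matrix HSP70 that drives the import motor, had 5150, 5345, 7413 and 7604 in MYC-positive samples, against 1915, 2497, 2605 and 4119 in MYC-negative samples. Hspe1, which encodes HSP10, the lid of HSP60, had 11105, 11544, 13672 and 16971 in MYC-positive samples, against 5266, 7759, 6131 and 12896 in MYC-negative samples. Hspd1 and Hspa9 did not overlap between fractions, whereas the MYC-negative sample of pair 4 exceeded 2 MYC-positive samples for Hspe1. Hspd1 was 1.68 higher (SE 0.15, adjusted p = 0.00053), or 3.21-fold, and Hspa9 1.23 higher (SE 0.15, adjusted p = 0.0014), or 2.34-fold. Hspe1 was 0.80 higher (SE 0.15, adjusted p = 0.0079), with its other probe set at 1.07, and had adjusted p = 0.077 without pair 1, 0.055 without the pair as a block and 0.063 with no intensity trend.

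Grpel1, the nucleotide exchange factor of the matrix HSP70, was 0.68 higher (SE 0.18, adjusted p = 0.026), with its smallest difference, 0.15, in pair 3. Its adjusted p was 0.14 without pair 1, 0.11 without pair 2 and 0.10 with no intensity trend. Trap1, the mitochondrial HSP90, was at 0.39 (SE 0.22, adjusted p = 0.23), with 1.24 in pair 4 and between -0.09 and 0.33 in the others.

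Of the processing peptidase, the catalytic subunit gene Pmpcb had 2401, 1966, 2115 and 3411 in MYC-positive samples, against 1343, 1376, 1783 and 1758 in MYC-negative samples. The fractions did not overlap, and it was 0.64 higher (SE 0.17, adjusted p = 0.029), with adjusted p = 0.16 without pair 1, 0.11 without pair 2, 0.057 without the pair as a block and 0.089 with no intensity trend. The partner subunit gene Pmpca had 3284, 3739, 3541 and 2626 in MYC-positive samples, against 2435, 2812, 2965 and 2275 in MYC-negative samples. It was above 0 in every pair but at 0.33 did not pass (SE 0.14, adjusted p = 0.12), and its other probe set was at 0.69. Pmpca passed after median centring (adjusted p = 0.0061) and with the mean over probe sets (adjusted p = 0.037). Phb2, which encodes a subunit of the prohibitin ring of the inner membrane, had 7619, 8460, 8215 and 10583 in MYC-positive samples, against 4569, 5687, 4682 and 5604 in MYC-negative samples. Its fractions were apart, with 0.76 (SE 0.12, adjusted p = 0.0041), and 0.51 (adjusted p = 0.13) with the mean over probe sets, of which a dim one was at -0.14.

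The rule also took 2 genes that share the names but not the translocase role. Timmdc1, an assembly factor of respiratory complex I, had 2095, 2607, 3910 and 3940 in MYC-positive samples, against 1656, 1763, 1982 and 3175 in MYC-negative samples. It was 0.55 higher (SE 0.16, adjusted p = 0.042) with overlapping fractions, and had adjusted p = 0.12 without pair 1, 0.17 without pair 2, 0.15 without pair 3, 0.061 with no filter, 0.18 without the pair as a block and 0.12 with no intensity trend. Tomm34, a cytosolic co-chaperone, had 7555, 7347, 6611 and 9059 in MYC-positive samples, against 6882, 7688, 6289 and 5277 in MYC-negative samples. It was at 0.23 (SE 0.16, adjusted p = 0.34).

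The pairs did not contribute alike. Of the 30 tested members, 13 had their lowest log2 difference in pair 3, 12 in pair 4, 4 in pair 2 and 1, Timm10b, in pair 1. The largest difference was in pair 4 for 12, in pair 3 for 10, in pair 1 for 8 and in pair 2 for 0. Members lowest in pair 3 included Tomm40, Timm50, Timm13, Timm9, Timm10 and Grpel1. Members lowest in pair 4 included Hspd1, Hspa9, Hspe1, Timm8a1, Timm8b, Tomm7 and Tomm22. Among MYC-positive arrays that of pair 4 held the highest signal of 21 members, and among MYC-negative arrays that of pair 4 held the highest signal of 16. Myc itself differed least in pair 2. The actin ratio was higher in the MYC-positive array in pairs 1 to 3 and in the MYC-negative array in pair 4. The same ratio of the Gapdh control was 1.409, 1.355, 1.468 and 1.367 in MYC-positive arrays of pairs 1 to 4. In MYC-negative arrays it was 1.394, 1.574, 1.392 and 1.537, so it ran against actin in pair 2. The arrays of pair 4 also had the lowest median signal of each fraction, 28.2 in MYC-positive and 41.4 in MYC-negative samples. The part of these ratios and median signals in the pair differences was not tested.

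Most genes had more than 1 probe set to compare. Of 69 member probe sets 64 passed the filter, and 19 of the 30 tested genes had at least 1 besides the one used, 34 in all. Of these 34, 4 had the opposite sign to the one used, in Timm10b, Timm50 and Phb2. Several probe sets used are of the _x_at and _s_at kinds, which can also bind related transcripts, among them those of Tomm20, Tomm22, Tomm7, Timm17b, Pmpcb and Hspe1.

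**Figure D4:**
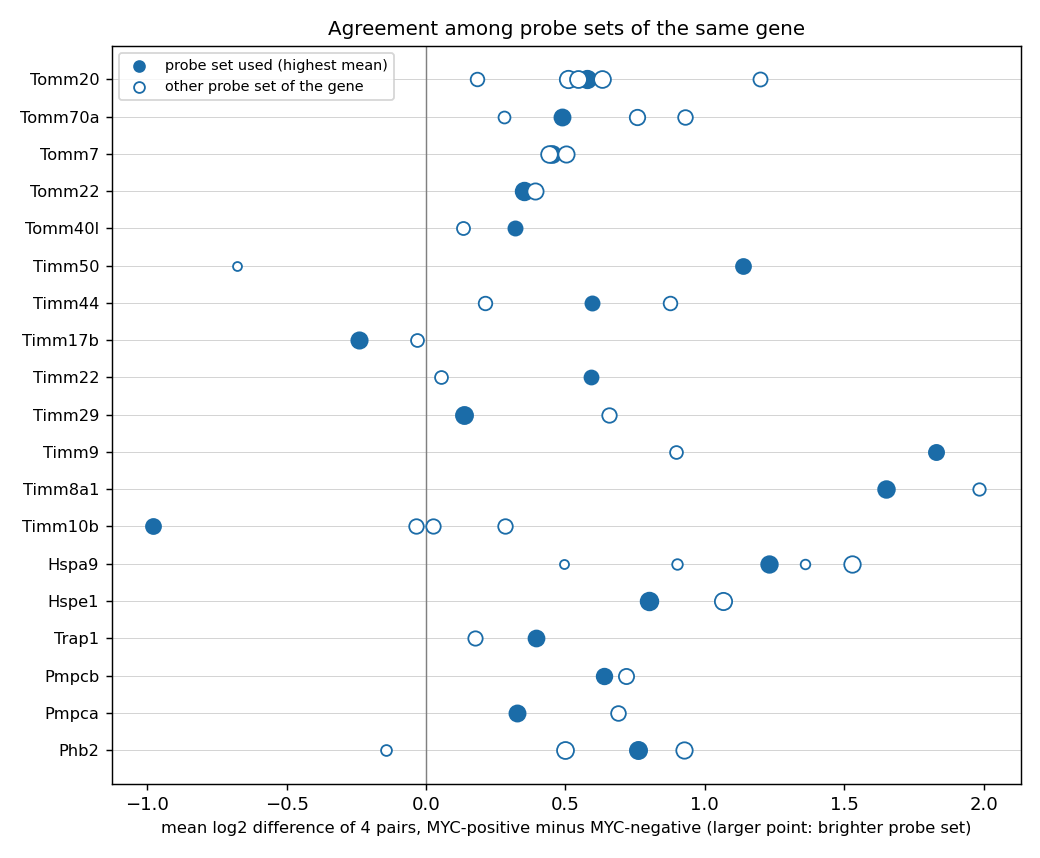
Mean log2 difference of 4 pairs (MYC-positive minus MYC-negative, x axis) for every probe set above the filter of the 19 genes with several, filled for the one used and larger for brighter probe sets. The probe sets of Tomm7 and Tomm22 lie close together, whereas the one used for Timm10b at -0.98 stands apart from its other 3.

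Further import and quality-control genes outside the rule were read in the same fit, and 16 of 31 tested were higher and 0 lower, with a median log2 difference of 0.67. At an unadjusted p under 0.05, 18 of the 31 were higher and 0 lower, beside the 17% and 19.2% of all genes tested. The largest was Chchd4, the oxidoreductase that folds small TIM proteins in the intermembrane space, at 2.03 (SE 0.21, adjusted p = 0.00080). The geometric mean of the Chchd4 signals was 2979 in MYC-positive and 729 in MYC-negative samples. Its partner oxidase gene Gfer was also higher (0.97, adjusted p = 0.012). Chchd6, of the cristae-organizing MICOS complex, was 1.96 higher (SE 0.26, adjusted p = 0.0019). The matrix protease gene Clpp (1.29, adjusted p = 0.0062) and the intermembrane space protease gene Htra2 (1.02, adjusted p = 0.0032) followed. Of 4 genes for outer membrane insertion Samm50, Mtx1 and Mtx2 were higher, as were 3 of 6 co-chaperones of the matrix HSP70. Of 10 proteases 4 were higher, of 5 MICOS genes 3, and of 4 insertase and peptidase genes only Mipep (0.84, adjusted p = 0.026). Without pair 1, 6 of the 31 were higher, and the adjusted p was 0.058 for Clpp, 0.077 for Gfer, 0.15 for Mipep, 0.093 for Samm50, 0.088 for Mtx1 and 0.089 for Mtx2. Without pair 2, 7 were higher, and Clpp passed while Gfer (0.057), Mipep (0.15), Samm50 (0.066), Mtx1 (0.058) and Mtx2 (0.15) did not. Without pair 3, Mipep was the 1 of the 16 that did not pass (0.060).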

How the data were processed

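Sorted cells gave 5 to 20 ng of RNA, which was amplified with NuGEN kits and hybridised to Affymetrix mouse arrays, per the labels' protocols. Each deposited value is a linear signal intensity of a probe set. The submitters' processing notes name MAS5, without its version or scaling. Precision is limited by having 4 arrays a group.

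Of 45056 probe sets, 19 were array controls, 34945 others had 1 gene in the platform annotation, 932 several and 9160 none. Only those with 1 gene were tested. Gene identifiers were looked up in the RefSeq table of the mouse assembly GRCm38.p6, which changed 0 symbols. Signals under 1 were set to 1 and log2 taken. Probe sets whose mean log2 lay above the 40th percentile of non-control probe sets (a signal of 18.7) were kept, and the one with the highest mean stood for each of 11754 genes. limma 3.58.1 in R 4.3.3 (lmFit, eBayes with an intensity trend) fitted the fraction with the pair as a block, leaving 3 residual degrees of freedom. P-values were Benjamini-Hochberg adjusted over all genes tested and called under 0.05, 2-sided. Pairs come from the sample descriptions. The deviations of paired arrays from their group means correlated at 0.26, 0.17, 0.088 and 0.12 for pairs 1 to 4. If pairs are not separate animals, p-values measure only the spread between samples.

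The members and lists were chosen with earlier results of these data known, so no list was tested. All members are named, with values by sample for the 3 largest called in each class (all where a class has 3 or fewer) and for a called member against its class. Of other import genes the 4 largest called in each direction are named by rule. Gfer, Mipep, Samm50, Mtx1, Mtx2, Apool, Chchd3 and Dnaja3 were chosen after their values were seen. The fit was tested on simulated data. Alternatives were another scaling, filter, floor (16), probe set rule or prior, no block, and each pair left out. Protein sequences were not used here.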

Additional observations from a re-analysis of the deposited data

Results flagged for a closer look

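Of 64 groups of 4 signals (32 genes in each fraction), 2 had a sample that stood far from the other 3, where chance alone gives about 1 in 20. Timm23 was at 10961 in the MYC-positive sample of pair 4, with the other MYC-positive samples from 8527 to 8831. Timm10 was at 890 in the MYC-negative sample of pair 1, with the other MYC-negative samples from 1023 to 1050. Both samples lie on the side of their own fraction that faces away from the other. Within pairs this did not widen the difference of Timm23, which was 0.86 in pair 4 against a fitted 0.91. That of Timm10 was 1.94 in pair 1 against a fitted 1.89. Without pair 4 and without pair 1 the calls of both genes held.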

How the results depend on the processing

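Of the 19 members called, all kept their sign under all 12 alternatives and 8 kept their call under all. Without the pair as a block (no replicate block), 15 members were higher and 1 lower, and 1055 and 901 genes in all. After median centring, 27 members were higher and 0 lower, the members' median was 1.10, and class medians were 0.91 for TOM, 0.80 for TIM22, 1.24 for TIM23, 1.81 for small TIM, 1.24 for matrix chaperones, 0.92 for the peptidase and 0.83 for the genes that only share the names; on the whole array 3204 genes were higher and 546 lower. Timm17b turned to 0.20 there. With no filter, which added Timm8a2, the small TIM median was 1.08. With the mean over probe sets, 19 members were higher and 0 lower, beside 1167 genes higher and 1592 lower of 11754 in all. The TIM23 median was 0.62 there, and 1 of the other import genes, Apool (-1.26), was lower. In that setting 14 other import genes were higher. The MICOS gene Chchd3 (-0.054, limma adjusted p = 0.87) and the matrix co-chaperone gene Dnaja3 (0.52, adjusted p = 0.25) no longer passed. With no intensity trend, 10 members and 9 other import genes were higher, and 736 genes were higher and 771 lower in all; the cause was not tested. Leaving out each pair in turn gave 9 to 22 members higher and 0 to 1 lower, 6 to 17 other import genes higher, and 399 to 1747 genes higher and 355 to 2057 lower in all, the fewest without pair 1 and the most without pair 4; the cause was not tested. Timm29 lay between -0.095 and 0.37 when a pair was left out. Signals near the filter, such as those of Tomm20l and Timm8a2, cannot be read as levels on these arrays.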

Other observations

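Genes whose probe sets are shared with another gene in the platform annotation were outside the tests, and 3 of them belong to the import machinery by name. The probe set of Tomm5, shared with Gm8069, had 2867, 2688, 2319 and 3356 in MYC-positive samples, against 893, 976, 821 and 1069 in MYC-negative samples. That is a mean log2 difference of 1.57 ± 0.11 (SD, n = 4 pairs), with the fractions apart. The brighter probe set of Phb, the prohibitin partner of Phb2, is shared with 1700071K01Rik and had 4137, 3799, 2612 and 5751 in MYC-positive samples, against 857, 1121, 1017 and 1051 in MYC-negative samples. Its mean difference was 1.96 ± 0.50 (SD, n = 4 pairs), and the dimmer one was at 1.65 ± 0.60 (SD, n = 4 pairs). The brighter probe set of Tomm6, shared with Prickle4, was at 0.63 ± 0.36 (SD, n = 4 pairs), and the other at 0.58 ± 0.77 (SD, n = 4 pairs), with pair 3 at -0.57. Signal of the named gene and of the gene it shares the probe set with cannot be told apart.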
